A study of Homo sapiens with 4 samples.

Results

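The genes of MHC class II antigen presentation were examined in maps of chromatin recovered with an HA antibody from cells of MDA-MB-231, a line long established from a human breast tumour of the triple-negative type. The 10 genes were a named list: the chain genes HLA-DRA, HLA-DRB1, HLA-DQA1, HLA-DQB1, HLA-DPA1 and HLA-DPB1, the peptide-exchange genes HLA-DMA and HLA-DMB, the invariant chain gene CD74, and CIITA. They are 10 of 19839 protein-coding genes on chromosomes 1 to 22 and X of the RefSeq table. For each, every peak that overlapped the gene span or the 10 kb on either side was taken from each of 2 peak lists. The lists belong to 2 ChIP samples, biological replicates 1 and 2, with PD-L1 named in their labels as the protein precipitated. Each ChIP sample has an input sample without antibody, and no mock precipitation was analysed here. All 4 samples carry the genotype label wild type and come from an untreated subclone of the line; the labels do not say how the HA tag was introduced. Recovery of chromatin without the tagged protein therefore cannot be told apart from binding.

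MHC class II molecules are pairs of an alpha and a beta chain that show peptides from endosomes to CD4+ T cells. CD74 protein blocks the peptide groove of the newly made pair, and HLA-DM exchanges the last piece of CD74 for a peptide. CIITA protein does not bind DNA itself: it is the co-activator that docks on the RFX, CREB and NF-Y factors at the X and Y boxes of class II promoters, and on that of CD74. These genes are active mainly in professional antigen-presenting cells, and interferon gamma induces them in many other cells through CIITA.

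The peaks at CD74 and CIITA are the only ones found at any of the 10 genes, and at CD74 a region found in both replicates covered the transcription start. The 250 bases before that start (GRCh38.p14, chr5:150412911-150413160, minus strand, RefSeq) are shown because they are the single listed promoter of a member that met a peak. CIITA and HLA-DRA had no listed promoter to compare. Capitals mark a match to the core of the X box (AGNNAC) and, 22 bases further on, to the core of the Y box (CCAAT).
CD74: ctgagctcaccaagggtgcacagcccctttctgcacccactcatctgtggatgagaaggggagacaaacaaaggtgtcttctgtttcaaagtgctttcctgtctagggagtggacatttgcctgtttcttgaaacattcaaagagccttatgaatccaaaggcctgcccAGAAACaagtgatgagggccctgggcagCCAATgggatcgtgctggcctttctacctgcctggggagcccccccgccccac

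In replicate 2 the peak covered all 250 of these bases, and in replicate 1 it covered the 62 bases nearest to the start. The matched stretch lies 81 to 49 bases before the start. All 33 of its bases lay in the peak of replicate 2 and 14 in that of replicate 1. A match of letters is a description and does not show that a factor was bound.

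Stretches from 4 class II promoters of chromosome 6 are shown beside it because they hold both box cores. They met no peak, but they lie in a long stretch of chromosome 6 without a peak in either list, described below. No promoter there could meet a peak, whatever its sequence, so the sequences allow no contrast with CD74. RefSeq promoters were found for 8 of the 10 genes, and HLA-DRA and CIITA had no entry. An X box core followed within 40 bases by ATTGG, the Y box core in its other orientation, was found in 4 of the 8 genes. These genes have 9 promoters, of which 4 hold it on the strand of the gene. Of all 35116 promoters of 300 bases in the table, 3.09% do. The boxes are known from class II promoters, so a higher share in these genes was set in advance and is not a finding. The stretches run from the X box core to the Y box core, both in capitals, on chromosome 6 at 32589890-32589927 (HLA-DRB1, minus strand), 32637304-32637342 (HLA-DQA1, plus strand), 32666741-32666778 (HLA-DQB1, minus strand) and 32953172-32953210 (HLA-DMA, minus strand).
HLA-DRB1: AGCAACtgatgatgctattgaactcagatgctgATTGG
HLA-DQA1: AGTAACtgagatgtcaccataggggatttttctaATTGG
HLA-DQB1: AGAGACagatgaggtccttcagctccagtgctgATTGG
HLA-DMA: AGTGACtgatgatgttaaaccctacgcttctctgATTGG

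Spacing between the cores was alike, with 27 bases in HLA-DRB1 and HLA-DQB1 and 28 in HLA-DQA1 and HLA-DMA. With the Y box in either orientation, a setting chosen after the sequences were seen, CD74 and HLA-DMB matched as well, which gave 6 of 8 genes against 6.02% of all promoters. HLA-DPA1 and HLA-DPB1 matched in neither setting on the strand of the gene. On the opposite strand, an X box core followed by ATTGG was present in HLA-DPB1 and HLA-DMB. Of all promoters, 6.1% hold it on either strand. The single motifs are common: 34.6% of all promoters hold CCAAT and 86.5% hold AGNNAC on either strand.

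None of the 8 class II genes on chromosome 6 had a peak in either replicate. This held for the DR genes HLA-DRA (chr6:32439887-32445046) and HLA-DRB1 (chr6:32578775-32589848). It also held for the DQ genes HLA-DQA1 (chr6:32637406-32655272) and HLA-DQB1 (chr6:32659467-32666657), and for the DP genes HLA-DPA1 (chr6:33064569-33080748) and HLA-DPB1 (chr6:33075990-33089696), which overlap each other. The HLA-DM genes HLA-DMA (chr6:32948618-32953097) and HLA-DMB (chr6:32934636-32941028) had none either. Both other members had peaks in both replicates: CD74 had 6 in replicate 1 and 4 in replicate 2, and CIITA had 25 and 9. A shared region, the union of overlapping peaks with at least 1 peak of each replicate, was found at 2 of the 10 genes, with 2 regions at CD74 and 5 at CIITA.

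**Figure D1:**
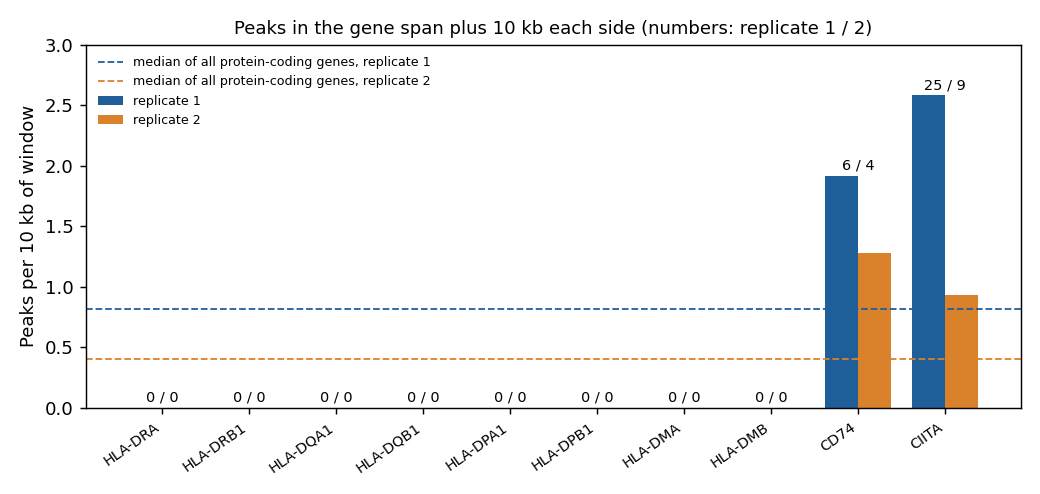
Number of peaks per 10 kb of window (gene span plus 10 kb each side) for the 10 genes, as bars for replicate 1 and replicate 2, with the peak numbers above; dashed lines give the median over 19839 protein-coding genes (0.817 and 0.402 per 10 kb). The 8 genes of chromosome 6 are at 0 in both replicates, and CD74 and CIITA are above both medians.

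Peaks near genes were common in these lists, so absence at a gene is the less usual case. Of all protein-coding genes, 83.6% had a peak of replicate 1 in their window, 74.8% had a peak of replicate 2 and 59.7% had a shared region. Within the gene span alone, 49.1% had a shared region. Genes of like size were no exception: among the 5497 genes with a span of 4480 to 17867 bp, the range of those 8 genes, 60.3% had a shared region. On chromosome 6 the share was 45%. No test was made on these counts, since neighbouring windows overlap (the 8 windows join into 5 stretches of 189 kb in all) and only 2 lists exist.

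The absence was not confined to the class II genes. The 8 genes lie in a stretch without a peak in either list, chr6:28506966-33488464, which is 4.98 Mb long and holds 171 protein-coding genes from GPX5 to ZBTB9. It takes in the class I stretch from HLA-F to MICB (1.79 Mb, 49 protein-coding genes) and the class III stretch between MICB and HLA-DRA (0.929 Mb, 61 genes). The class II stretch from HLA-DRA to HLA-DPB1 (0.65 Mb, 18 genes) is the smallest of these. All 171 genes, 16.4% of the 1042 on chromosome 6, also had no peak in the 10 kb on either side. Outside the stretch, 53.8% of the other 871 genes of chromosome 6 had a shared region in their window, and 61.4% of the genes of like span in the genome did.

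Both edges of the stretch were nearly the same in the replicates. The last peak before it ended at 28504476 in replicate 1 (fold 3.61) and at 28506965 in replicate 2 (fold 2.38), 3.94 and 3.93 Mb below HLA-DRA. The next peak began at 33488465 in replicate 1 (fold 3.26) and at 33490610 in replicate 2 (fold 2.26), 399 and 401 kb above HLA-DPB1. Peaks resumed at once on that side: the next 5 Mb held 848 peaks in replicate 1 and 536 in replicate 2, or 170 and 107 per Mb, and a shared region lay in the window of 60 of its 65 protein-coding genes. The 5 Mb below the stretch held 273 and 130 peaks, or 54.6 and 26 per Mb, and 30 of its 103 genes had a shared region. Genes were not sparse in the stretch, with 34.3 protein-coding genes per Mb against 20.6 below and 13 above.

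**Figure D2:**
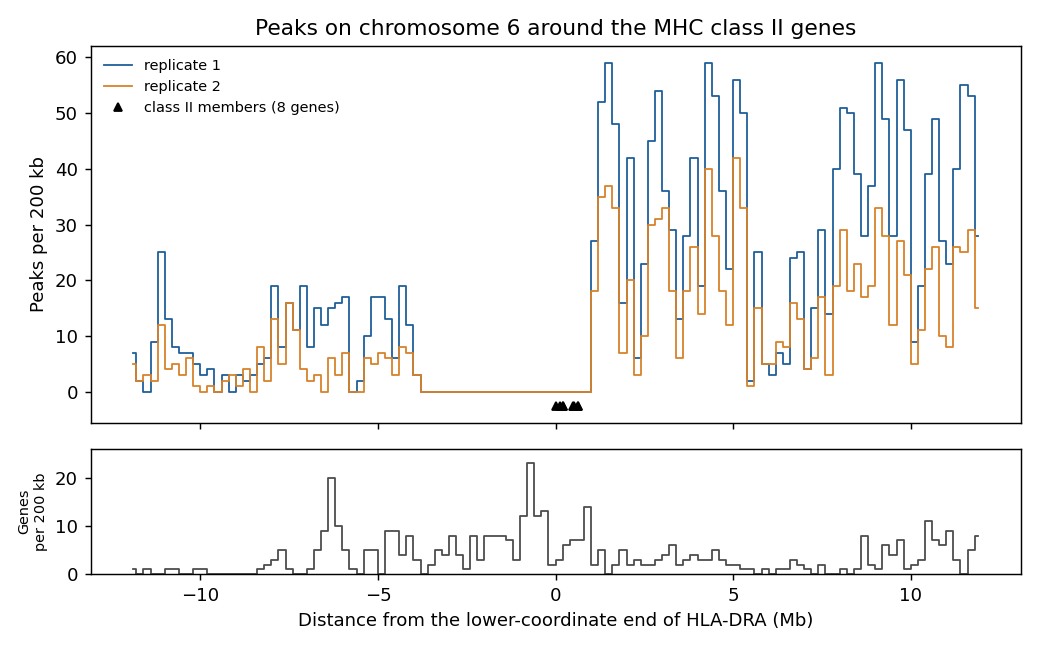
Peaks per 200 kb in replicate 1 and replicate 2 (upper panel) and protein-coding genes per 200 kb (lower panel) against the distance in Mb from the lower-coordinate end of HLA-DRA; triangles mark the 8 class II members. Both replicates drop to 0 from 3.9 Mb below HLA-DRA to 1 Mb above it, a stretch that holds 171 protein-coding genes.

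In each replicate this was the longest run without a peak on chromosome 6 (4.98 Mb in both, against 3.81 Mb for the next longest in replicate 1 and 3.40 Mb in replicate 2). Across the genome it held more protein-coding genes than any other stretch of at least 200 kb that lacked peaks in both lists. The next were a stretch of 3.09 Mb on chromosome 17 with 55 genes, one of 1.20 Mb on chromosome 8 with 43 and one of 1.06 Mb on chromosome 19 with 42. By length, the stretch on chromosome 6 was only number 12 of the 1329 such stretches in the genome. Of the 2714 protein-coding genes without a peak of either replicate in their window, 171 lay in the stretch on chromosome 6.

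Peak numbers run without a gap from 1 to 166628 in replicate 1 and from 1 to 93618 in replicate 2. They do not tell whether reads or regions were left out before the peaks were numbered. Both lists name alternate contigs of the reference, 15 in replicate 1 with 24 peaks and 2 in replicate 2 with 3 peaks, and none of these belongs to chromosome 6. As background, GRCh38 carries alternate versions of the MHC, and HLA genes have close copies of each other and differ between people. The labels do not say how reads that match several places were treated. The part of these features in the missing peaks was not tested, so a gene without a peak here is a gene where none was called, not one shown to lack the protein.

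CD74 (chr5:150401639-150412910) carried its peaks inside the gene, at its start and towards its neighbour. Its start is the upper-coordinate end. Replicate 1 placed 1 peak over the start (chr5:150412733-150412972, fold 3.37, −log10 q 2.17), 2 inside the gene and 3 below it, and those 3 overlapped TCOF1 (chr5:150357697-150400293), a nucleolar protein gene. Replicate 2 placed 1 peak over the start (chr5:150412785-150413872, fold 2.17, −log10 q 1.93), 2 inside the gene and 1 above it, centred 6.99 kb from the start.

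The shared region at the start of CD74 spanned chr5:150412733-150413872 (1140 bp), of which 188 bp lay in peaks of both replicates. Among protein-coding genes with a listed start, 21.1% had a shared region over one, so CD74 belongs to a sizeable minority in this respect. The other shared region lay inside the gene at chr5:150404325-150407021 (2697 bp, 1092 bp in both), with fold 3.34 in replicate 1 and 2.40 in replicate 2. With −log10 q of at least 2 in both lists, this region inside the gene stayed and the one at the start was lost, as was every shared region of CIITA. With a reciprocal overlap of 50%, no region of CD74 counted as shared and 2 of CIITA did.

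CIITA (chr16:10866206-10943021) carried peaks along its whole length in replicate 1 and fewer in replicate 2. Its span of 76816 bp makes it the longest of the 10 genes. In replicate 1, 18 of the 25 peaks lay inside the gene, 2 spanned its ends and 5 lay above it in CLEC16A. In replicate 2, 7 of the 9 lay inside, 1 below and 1 above, and none spanned an end. At the lower-coordinate end, a peak of replicate 1 (chr16:10866035-10866721, fold 3.18) met none of replicate 2.

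Of the 5 shared regions at CIITA, 4 were inside the gene and 1 lay beyond it. They began 7284, 31795, 56008 and 70958 bp from the lower-coordinate end. The first, chr16:10873490-10873789, was 300 bp wide, with fold 3.33 in replicate 1 and 2.34 in replicate 2. The next, chr16:10898001-10898916, had the closest match of the replicates, with 838 of its 916 bp in both peaks and fold 3.44 and 2.44. At chr16:10922214-10924780, 781 of 2567 bp were in both peaks, with fold 3.30 and 2.36. The region at chr16:10937164-10938625 (fold 3.08 and 2.33) also overlapped DEXI, a gene within the span of CIITA. The fifth, chr16:10945707-10947577 (fold 3.09 and 2.15), lay over CLEC16A and not over CIITA.

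**Figure D3:**
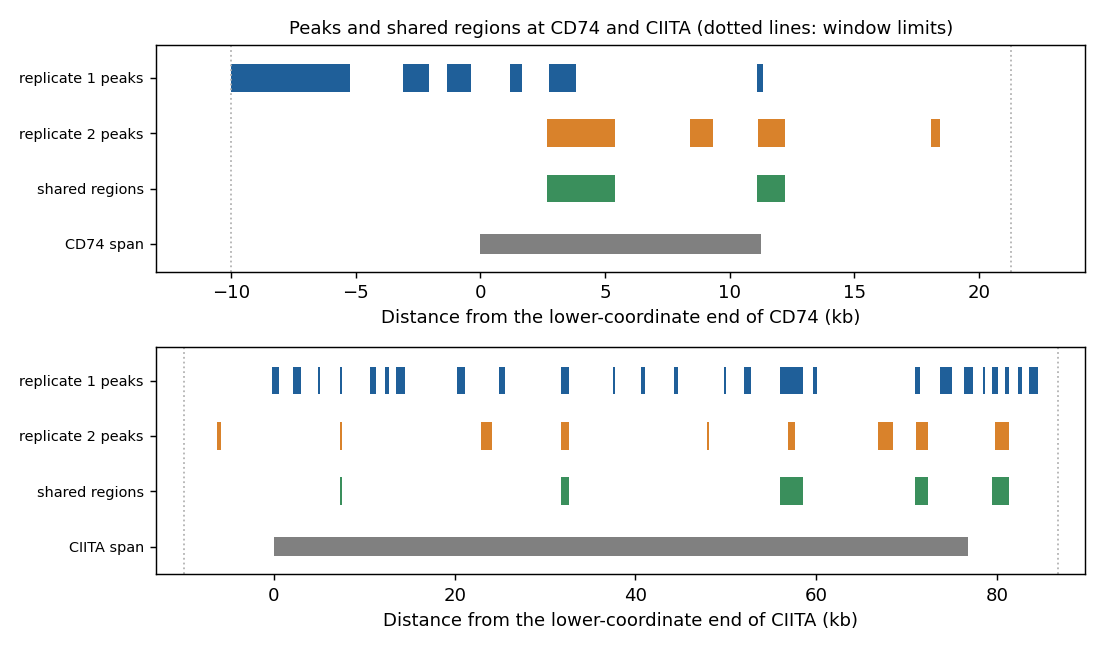
Peaks of replicate 1 and replicate 2, shared regions and the gene span at CD74 (upper panel) and CIITA (lower panel), by distance in kb from the lower-coordinate end of each gene; dotted lines mark the window limits. CD74 has 2 shared regions, of which 1 covers the upper end, its start; CIITA has 4 inside the gene and 1 beyond its upper end.

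Most peaks at both genes had a fold above the median of their list, and most lay below its 95% point. As a ratio over the caller's background, the fold at CD74 ran from 3.16 to 3.51 in replicate 1 and from 2.17 to 2.78 in replicate 2. At CIITA it ran from 2.97 to 3.96 and from 2.15 to 2.62. The medians of the whole lists were 3.14 and 2.27, with 95% points of 3.71 and 2.84. Above the list median were 6 of 6 peaks at CD74 and 18 of 25 at CIITA in replicate 1, and 3 of 4 and 8 of 9 in replicate 2. The highest fold, 3.96 at chr16:10925888-10926291 inside CIITA, came from a peak of replicate 1 that overlapped none of replicate 2. No peak at either gene had a −log10 q above 2.92 in replicate 1 or 2.28 in replicate 2; the lowest value in both lists was 1.30.

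**Figure D4:**
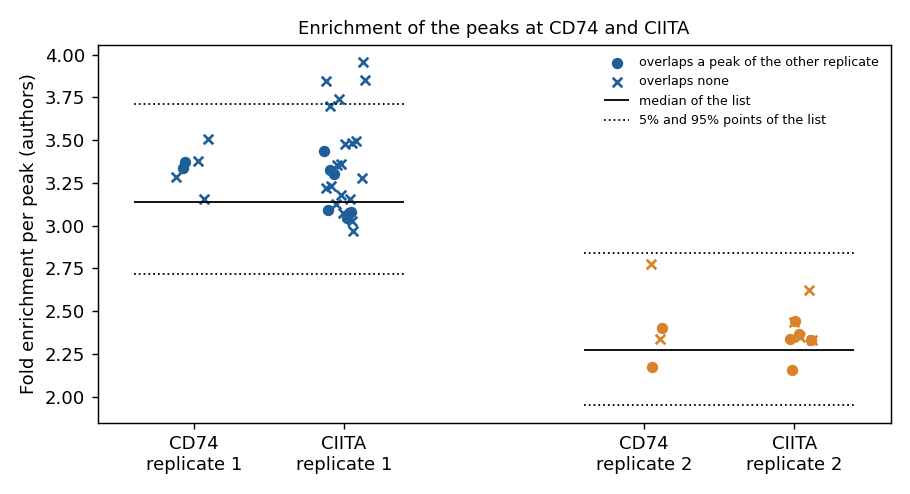
The authors' fold enrichment of each peak at CD74 and CIITA, by replicate; circles overlap a peak of the other replicate and crosses do not, solid lines give the median of the whole list (3.14 and 2.27) and dotted lines its 5% and 95% points. All peaks of replicate 2 lie within those points, and 4 peaks of replicate 1 at CIITA lie above them.

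The share of peaks found in both replicates lay on either side of that of the whole lists. At CD74, 2 of 6 peaks of replicate 1 (33.3%) and 2 of 4 of replicate 2 (50%) overlapped the other list. At CIITA it was 6 of 25 (24%) and 5 of 9 (55.6%). Over all peaks it was 28.7% in replicate 1 and 52% in replicate 2. Peak names of replicate 2 include "Merge", which no label explains, so it is not certain that the replicates were called apart.

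Peak density put both genes above most genes, but the neighbourhood was dense as well. CD74 had 1.92 peaks per 10 kb of window in replicate 1 and 1.28 in replicate 2, more than 73.4% and 83.3% of all protein-coding genes. CIITA had 2.58 and 0.93, more than 86.9% and 72.7%. Replicate 1 thus placed CIITA above CD74 and replicate 2 placed it below, so the order of the genes differed between replicates. On chromosome 16, whose genes had medians of 1.75 and 0.877, CIITA was above 76.6% of genes in replicate 1 and 52.6% in replicate 2. On chromosome 5, with medians of 0.574 and 0.286, CD74 was above 81.2% and 91.4%. Within 500 kb of the centre of the gene, a window of 1 Mb, 193 and 102 peaks lay around CD74 and 159 and 79 around CIITA. Chromosome 5 as a whole had 47.5 and 25.9 peaks per Mb, and chromosome 16 had 87.1 and 53.4. Around HLA-DRA, where 36 protein-coding genes lie, there were none in either replicate, since that window lies in the peak-free stretch.

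Other genes of the pathway lie both inside the peak-free stretch, where none can have a peak by its definition, and outside it. In a list of 25, the 5 further class II chain genes HLA-DOA, HLA-DOB, HLA-DRB5, HLA-DQA2 and HLA-DQB2 lie inside. The 5 other genes within the class II stretch that were listed, TAP1, TAP2, PSMB8, PSMB9 and BRD2, lie inside as well. Of the 20 pathway genes elsewhere, 16 had a peak in replicate 1, 15 in replicate 2 and 10 a shared region (50%), below the 59.7% of all protein-coding genes.

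Among the factors that CIITA docks on, 4 of 7 had a shared region, against 59.7% of all protein-coding genes. RFXANK, a subunit of the RFX complex, had 10 peaks in replicate 1 and 5 in replicate 2, with 5 shared regions in its window. Only 1 of the 5 overlapped the gene span, and it was the best (chr19:19193779-19194204, fold 4.13 and 2.26). RFX5, the DNA-binding subunit of the complex, had 3 and 2 peaks and 1 shared region (3.43 and 2.19), and RFXAP, the third subunit, had no peak. For the NF-Y subunits, NFYB had 1 shared region (3.09 and 2.25), NFYC had 2, both in the flanks of the gene, and NFYA had 2 peaks in each replicate but none shared. CREB1 had 1 peak in each replicate and none shared.

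Enzymes that prepare peptides in endosomes had a shared region in 3 of 6 cases, also against 59.7% of all genes. IFI30, the thiol reductase, was the single gene of the 16 listed outside the stretch with a RefSeq start that had one over its start (chr19:18172085-18175691, fold 3.85 and 2.40). Among all protein-coding genes with a listed start, 21.1% had a shared region over one. The protease legumain, LGMN, had 14 and 7 peaks with 6 shared regions (best 3.01 and 2.49). Cathepsin B, CTSB, had 1 shared region (2.93 and 2.79), which lay in the flank of the gene. Cathepsin S, CTSS, which cuts CD74 protein, had no peak in either replicate. Cathepsin L, CTSL, had 1 peak in replicate 2 only, and the CD74 protease gene SPPL2A had 1 in replicate 1 only. Of the ubiquitin ligases of class II molecules, MARCHF1 had 2 shared regions (best 2.98 and 2.30) over a span of 860 kb, and MARCHF8 had none.

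On the interferon gamma route to CIITA, 2 of 5 genes had a shared region, with the same 59.7% over all genes. IRF1, a factor that acts on the CIITA promoter, had 11 peaks in replicate 1 and 3 in replicate 2, with 4 shared regions in its window. Only 1 of the 4 overlapped the gene span. The best (chr5:132480279-132481423, fold 3.65 and 2.22) lay in the flank of the gene. The kinase gene JAK1 spans 235 kb and had 25 and 15 peaks with 5 shared regions in its window (best 3.26 and 2.87), and JAK2 had none in either replicate. Neither receptor gene, IFNGR1 or IFNGR2, had a shared region.

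**Figure D5:**
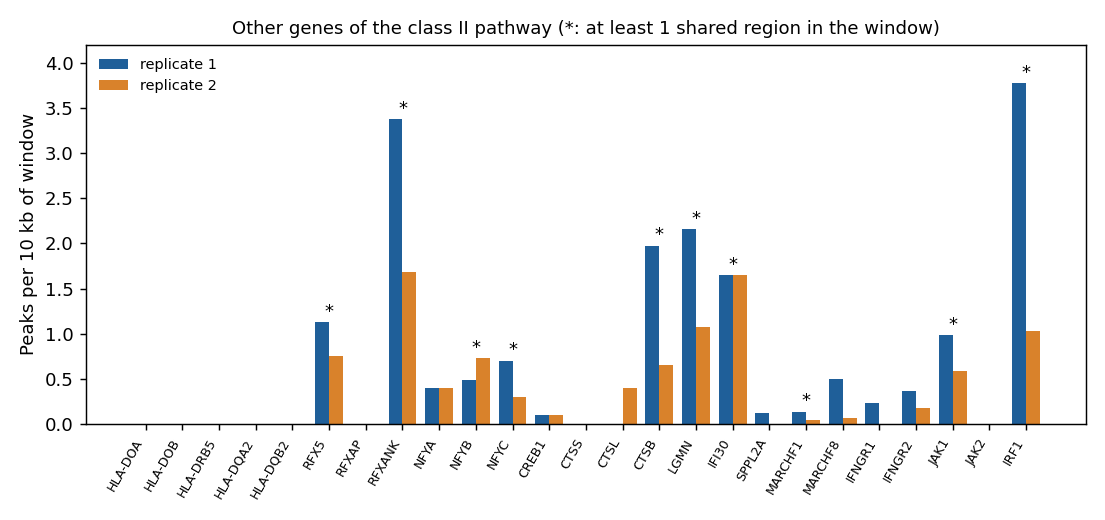
Peaks per 10 kb of window in replicate 1 and replicate 2 for 25 other genes of the class II pathway; an asterisk marks the 10 genes with at least 1 shared region. The 5 class II chain genes on the left are at 0, as are RFXAP, CTSS and JAK2, and IRF1 and RFXANK have the highest values of replicate 1 (3.77 and 3.38).

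Of 19 class I presentation genes listed, 11 lie inside the peak-free stretch, TAP1, TAP2, PSMB8 and PSMB9 among them. Of the 8 elsewhere, 6 had a shared region (75%, against 59.7% of all protein-coding genes), among them NLRC5, the class I counterpart of CIITA, also on chromosome 16, with 33 peaks in replicate 1 and 18 in replicate 2. B2M, on chromosome 15, had no peak in either replicate.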

How the data were processed

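Each replicate came as 1 deposited list of broad peaks (166628 and 93618 lines) for hg38. Per the submitters' processing notes, the tools were Bowtie2 2.2.9 and MACS2 2.1.1; the notes give neither their roles nor thresholds. The deposited columns used were the authors' fold enrichment (a ratio) and −log10 q-value; the −log10 p-value entered no result. The deposited score was made by the authors' peak caller as 10 times the −log10 q, cut to a whole number in 99.99% of lines, and entered no result. Reads were not used here, so depth is unknown. The lists hold only peaks above a minimum, so no limit can be set on a gene at 0.

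Gene spans came from the RefSeq table of GRCh38.p14, leaving out rows on alternate scaffolds. That table gives no strand; starts came from the RefSeq promoter table (250 bases before to 50 after). Peaks on chromosomes 1 to 22 and X were joined where they overlapped by at least 1 bp, which gave 45771 shared regions. Overlap counting was tested on simulated data (Python 3.11.15, pandas 2.3.3). Members and gene lists were chosen with earlier results of these data known. All 10 members are named, and other listed genes by shared region, with others named for contrast; 1 further gene was left out of the pathway list, its counts and its figure, and is not reported here. Alternatives covered thresholds, overlap, windows, assignment and single replicates.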

Additional observations from a re-analysis of the deposited data

How the results depend on the processing

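The count of shared regions at the 8 genes of chromosome 6 was 0 under all 14 alternatives, as it had to be, since the nearest peak to any of them was 399 kb away. The 2 genes with a shared region, CD74 and CIITA, fell to 1 with −log10 q of at least 2, with reciprocal overlap of 50%, and with windows of 1 kb around both gene ends or around the listed start. At −log10 q of at least 5, the counts of members with a shared region, with a replicate 1 peak and with a replicate 2 peak were 0. Few peaks anywhere reached that value: 40 of 166548 in replicate 1 and 69 of 93591 in replicate 2. A count of 0 at this setting is therefore not particular to these genes. Members with a replicate 1 peak were 1 around the listed start, and members with a replicate 2 peak were 1 there and around both ends. The 7 distinct shared regions became 4 with the 50% of peaks of higher fold, 2 with reciprocal overlap, 1 with −log10 q of at least 2 or with either narrow window, 0 at −log10 q of at least 5 and 16 with a flank of 50 kb. Replicates taken alone gave 13 to 31 peaks. Peaks per 10 kb of the joined windows were 0.977 in replicate 1, against 0.599 at −log10 q of at least 2, 0 at 5, 0.662 with equal numbers of peaks, 0.662 with each peak counted for its nearest gene only, 1.39 without flanks and 0.556 around the listed start. In replicate 2 they were 0.41, against 0.126 at −log10 q of at least 2 and 0 at 5. The cause of these shifts was not tested, beyond the fewer peaks or other window lengths that the settings impose. No paired analysis was possible because the inputs, which share replicate numbers with the ChIP samples, have no list of their own here. HLA-DRA and CIITA have no listed start, so the start window covers 8 genes. Depth is unknown, so a gene at 0 is one where no peak was called.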
